A study of Mus musculus with 8 samples.

Results

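The genes described here are 10 efferocytosis and scavenger receptor genes, Mertk, Axl, Gas6, Timd4, Mrc1, Cd5l, Vsig4, Stab1, Cd36 and Msr1. They were chosen by symbol, all 10 were found among the 18790 named genes of the deposited count tables, and 9 passed the filter on low counts (Vsig4 did not). RNA came from femoral bone marrow of untreated C57BL/6 mice carrying the Csf1r-EGFP transgene, a green fluorescent reporter driven by the promoter of the macrophage growth factor receptor gene. The CD11b+ population was sorted as positive for CD11b, F4/80 and VCAM1, negative for Ly6G and low for the reporter (GFPlo). The CD11b- population was negative for CD11b and positive for F4/80, VCAM1 and the reporter. Each population had 4 libraries, which the design text calls biological replicates, and every library carried the transgene. The mice's age is not given in the sources used here. The series title sets out whether such sorts hold macrophages or other cells bearing pieces of macrophages.

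Library totals were 36604660 to 47951234 counts in CD11b+ and 27462607 to 35160747 counts in CD11b-. Levels are given as counts or as CPM, the count as a share of the library total scaled in the usual way for that unit, so that 1 count was worth 0.0209 to 0.0364 CPM. Counts summed over a neutrophil marker list were 132462 to 154095 CPM in CD11b+ libraries and 662 to 6910 CPM in CD11b- libraries. An erythroid list summed to 794 to 1317 CPM in CD11b+ and 34508 to 46180 CPM in CD11b-, and a resident macrophage list of 29 genes to 2320 to 2622 CPM in CD11b+ and 2064 to 3086 CPM in CD11b-. By these lists the label "macrophage" of the 2 sorts did not match their most abundant transcripts, and the sorts are called by CD11b here. Some macrophage-defining transcripts were low, and Siglec1 (the macrophage sialoadhesin) averaged 1.77 CPM over CD11b+ libraries and 0.856 CPM over CD11b- libraries. Others of the list were abundant, with Apoe averaging 707 and 740 CPM and Vcam1 393 and 107 CPM in that order. In sorted bulk RNA, fewer cells of a type and less RNA per cell cannot be told apart.

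Efferocytosis is the uptake of dying cells. The engulfing cell recognises phosphatidylserine exposed on the dying cell, either directly through receptors such as TIM-4 (gene Timd4) and stabilin-1 (Stab1) or through a soluble bridge such as GAS6, which binds phosphatidylserine at one end and the receptor tyrosine kinases AXL and MERTK at the other. Scavenger receptors such as CD36 and the class A receptor MSR1 take up oxidised lipoproteins and other altered ligands, while the mannose receptor MRC1 clears glycoproteins. In bone marrow, macrophages use these routes to clear the nuclei expelled by maturing red cells and to remove aged neutrophils.

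Promoter sequences are shown for Cd36 and Cd5l, because these were the only members of the set whose libraries did not overlap between the populations. Such separation was common, found in 36.4% of all tested genes. The sequences were taken by symbol from a RefSeq table of build GRCm38.p6, which held 9 of the 10 genes (Msr1 was not matched). They span 250 bases before to 50 bases after the annotated gene start. The submitters' processing notes name mm9, so these positions were not joined to the counts. Each sequence is written 5′ to 3′ on the gene's strand. Capitals mark matches on either strand to a GATA motif (AGATAA or TGATAA as well as the forms AGATAG and also TGATAG), a PU.1 box (GAGGAA), a MAF core (TGCTGA, a part of the full MAF site) or a direct repeat bound by PPAR and RXR receptors (AGGTCANAGGTCA).
Cd36, chr5:17835847-17836146, minus strand: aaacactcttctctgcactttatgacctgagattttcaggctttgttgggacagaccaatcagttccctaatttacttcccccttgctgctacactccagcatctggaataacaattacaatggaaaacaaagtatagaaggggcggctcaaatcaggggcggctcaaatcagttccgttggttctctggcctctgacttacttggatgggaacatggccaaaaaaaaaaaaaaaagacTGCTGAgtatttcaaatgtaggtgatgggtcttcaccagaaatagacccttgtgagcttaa
Cd5l, chr3:87357631-87357930, plus strand: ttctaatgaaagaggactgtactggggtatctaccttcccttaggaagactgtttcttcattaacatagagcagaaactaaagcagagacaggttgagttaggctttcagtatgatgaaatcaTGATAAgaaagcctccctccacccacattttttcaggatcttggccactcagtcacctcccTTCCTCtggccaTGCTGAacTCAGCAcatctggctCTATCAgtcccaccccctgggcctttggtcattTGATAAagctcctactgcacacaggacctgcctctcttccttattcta
The Cd36 window held 1 MAF core and no match to the other motifs. The Cd5l window held 3 GATA matches, 1 PU.1 box and 2 MAF cores, none of them overlapping another. Of 32851 promoter windows of 300 bases in the same table, 29.8% held a GATA match, 28.3% a PU.1 box, 19.5% a MAF core and 0.0396% the direct repeat. Among the 9 members with a window, 2 held a GATA match, 5 a PU.1 box and 5 a MAF core. These matches describe letters and not bound sites, and any other start of these genes lies outside the windows.

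Cd36 was the only member called different between the populations. Of the 9 tested genes, none was called higher in CD11b+, Cd36 was called lower and 8 were not called, by edgeR's quasi-likelihood test with Benjamini-Hochberg adjustment over 11965 genes at 0.05. Across all tested genes 29.7% were called, 14.6% higher and 15.0% lower in CD11b+. The median log2 fold change (CD11b+ over CD11b-) was -0.64 over the 9 tested members and -0.01 over all tested genes. At an unadjusted p under 0.05 the count of members was also 1. Most members were low, with 8 of the 10 averaging under the median level of tested genes, 23.3 CPM. A count of 0 was found in 15 of the 80 values of gene and library, spread over 6 of the 10 genes. Among all tested genes, 21.9% had at least 1 library at 0.

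**Figure D1:**
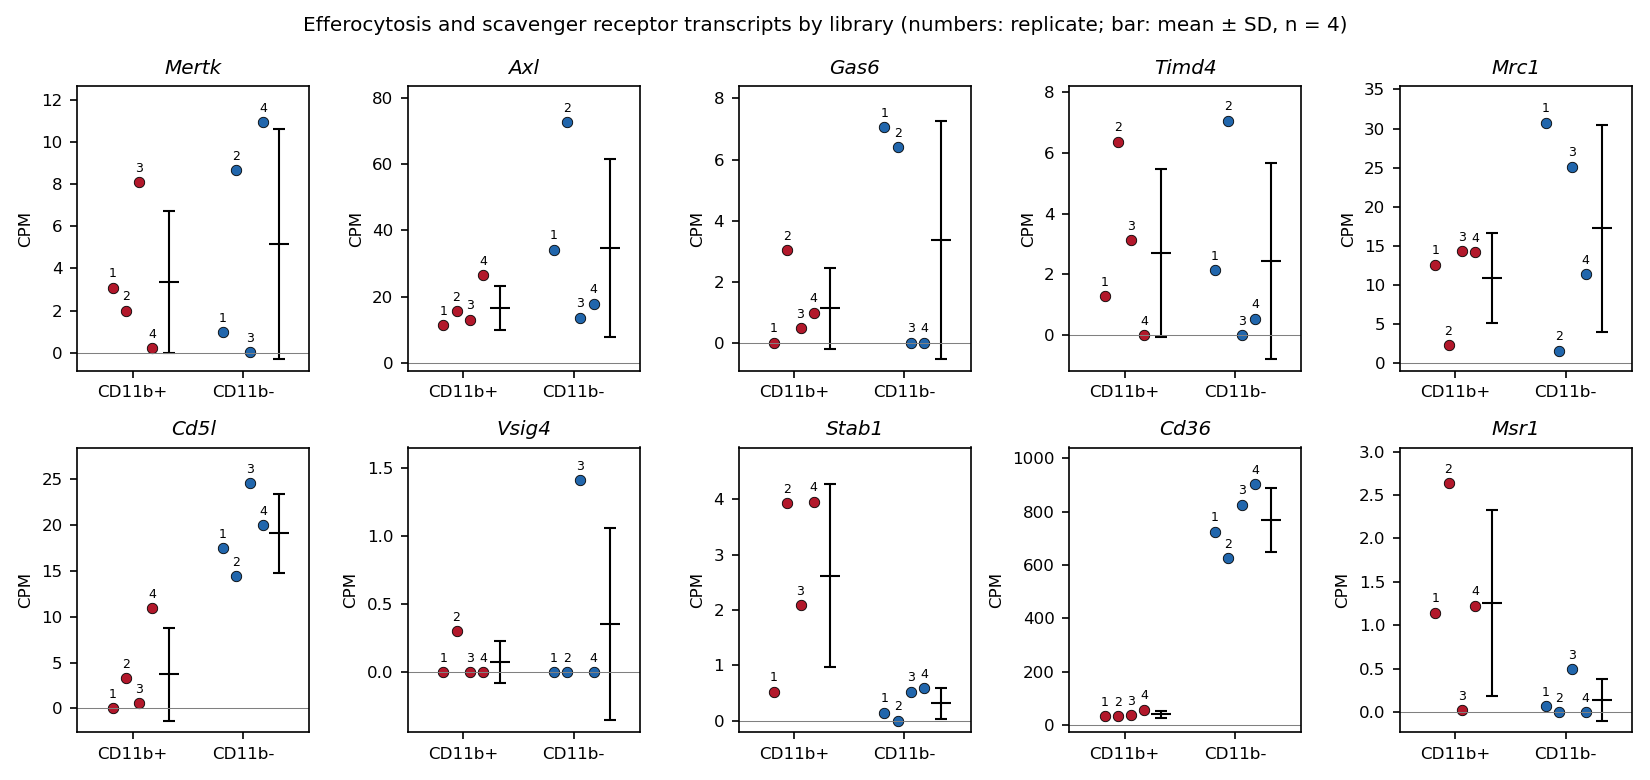
CPM of each of the 10 genes (vertical axis, a separate linear scale per gene) in the 4 CD11b+ libraries (red, left) and the 4 CD11b- libraries (blue, right), with replicate numbers above the points and the mean ± SD beside them. Only Cd36 and Cd5l separate the populations completely, as do 36.4% of all tested genes. Mertk, Gas6 and Timd4 range from at or near 0 to several CPM within each population.

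CD36 is a class B scavenger receptor and fatty acid transporter. Its transcript stood at 32.7, 31.9, 35.9 and 57.3 CPM in CD11b+ replicates 1 to 4, against 725, 626, 826 and 902 CPM in CD11b- replicates 1 to 4. These values correspond to 1197 to 2332 counts per CD11b+ library and 20670 to 26868 counts per CD11b- library. Every CD11b- library lay more than an order of magnitude above every CD11b+ library. Cd36 was 19.1-fold lower in CD11b+ (log2 -4.25, SE 0.24, 95% interval -4.80 to -3.71, edgeR adjusted p = 2.66e-06). Across the alternative settings its log2 fold change ran from -4.47 to -4.16. With 57.3 CPM, CD11b+ replicate 4 was set apart from the other CD11b+ libraries, and without it the log2 fold change was -4.47.

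The erythroid marker sum moved with Cd36 between the populations. It was 1317, 855, 794 and 1238 CPM in CD11b+ replicates 1 to 4, and 36054, 34508, 46180 and 42203 CPM in CD11b- replicates 1 to 4, with all 16 of its 16 tested genes called lower in CD11b+. The B progenitor sum also stood lower in CD11b+, at 53.2 to 130 CPM against 1148 to 2367 CPM in CD11b-, with 9 of 10 tested genes called lower. Within CD11b-, replicates 3 and 4 were highest and replicate 2 lowest in both Cd36 and the erythroid sum. The monocyte sum (214, 172, 251 and 320 CPM in CD11b- replicates 1 to 4) had this pattern too. So did the dendritic cell sum (168, 161, 186 and 211 CPM), while none of the other cell type lists did. The dendritic cell sum was also lower in CD11b+, at 57.5 to 111 CPM. Within CD11b+, replicate 1 was highest in the erythroid sum but not in Cd36. Endothelial cells and platelets are other known sources of Cd36. An eosinophil list summed to 7859 to 20858 CPM in CD11b+ libraries and 76.6 to 490 CPM in CD11b- libraries, and a monocyte list to 527 to 821 CPM in CD11b+ libraries and 172 to 320 CPM in CD11b- libraries. The endothelial list summed to 56.5 to 82.3 CPM in CD11b+ and 57.5 to 143 CPM in CD11b- with none of 7 tested genes called. Of its 13 genes in the files, 4 had counts in all 8 libraries, and one of these, the TGF-beta co-receptor gene Eng, averaged 8.44 CPM over CD11b+ libraries and 28.9 CPM over CD11b- libraries (not called by edgeR, adjusted p = 0.0622, and called by DESeq2 at 0.015). The rest of these 4, none called by edgeR, did not share 1 direction. Pecam1, the most abundant, averaged 36.5 CPM over CD11b+ libraries and 39.3 CPM over CD11b- libraries. Egfl7 averaged 12.1 and 9.58 CPM in that order, and Stab2 3.47 and 13.4 CPM. The megakaryocyte and platelet list summed to 68.2 to 109 CPM in CD11b+ and 103 to 149 CPM in CD11b-, with 1 of 9 tested genes called. That gene was Gp9, a platelet glycoprotein gene, which averaged 1.51 CPM over CD11b+ libraries and 48.96 CPM over CD11b- libraries (log2 -5.00, edgeR adjusted p = 0.00713), while Vwf averaged 2.21 CPM over CD11b+ libraries and 20.2 CPM over CD11b- libraries (not called by edgeR, adjusted p = 0.0589, and called by DESeq2 at 0.00543). Other genes of the platelet list did not lean this way. Itga2b averaged 30.3 CPM over CD11b+ libraries and 15.2 CPM over CD11b- libraries. Itgb3 averaged 14.3 and 3.25 CPM in that order, and Pf4 22.2 and 19.9 CPM, with none of these called by edgeR. The part of any of these cells in the Cd36 difference was not tested.

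**Figure D2:**
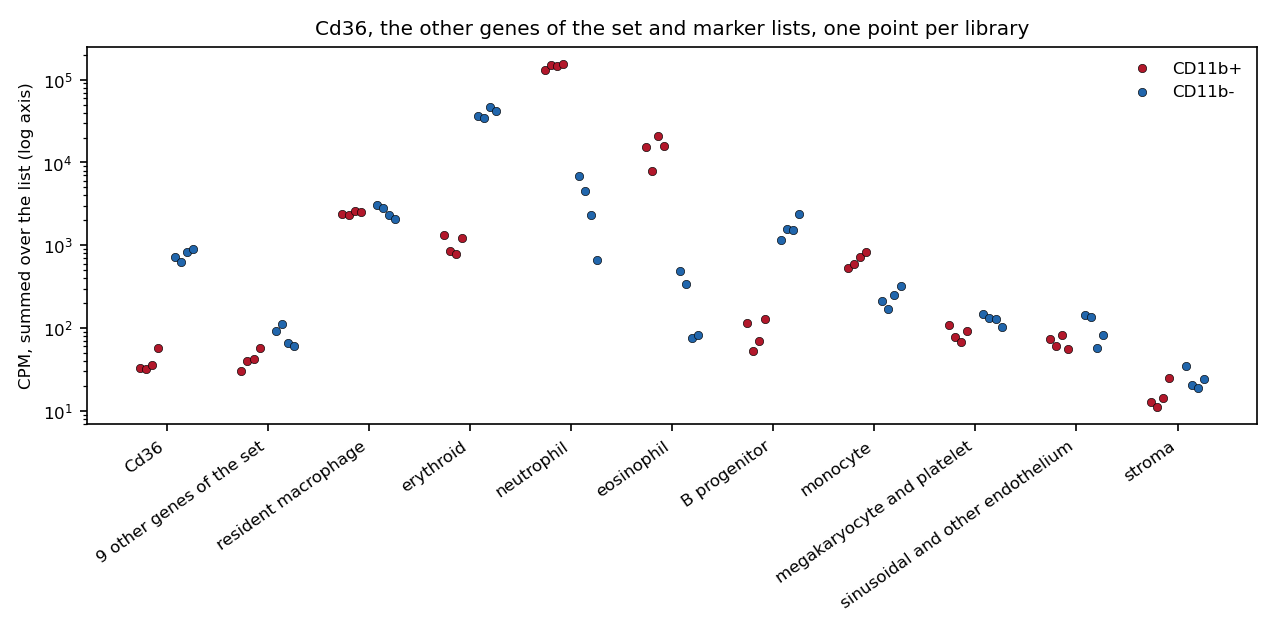
Levels in CPM on a log axis for Cd36, for the sum of the 9 other genes of the set and for the sums of marker lists, with 1 point per library, CD11b+ in red on the left and CD11b- in blue on the right of each position. Cd36 and the erythroid and B progenitor sums lie lower in every CD11b+ library, the neutrophil and eosinophil sums lie higher, and the resident macrophage sums overlap.

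CD5L, also called AIM, is a secreted scavenger receptor cysteine-rich protein made by tissue macrophages. Cd5l had 0, 3.32, 0.563 and 10.96 CPM in CD11b+ replicates 1 to 4, against 17.5, 14.4, 24.6 and 19.95 CPM in CD11b- replicates 1 to 4. The populations did not overlap, as in 36.4% of all tested genes, but CD11b+ libraries differed among themselves from 0 to 446 counts while CD11b- libraries held 498 to 800 counts. The fitted log2 fold change of -2.35 (SE 1.30, 95% interval -5.26 to 0.56) was not called by edgeR (adjusted p = 0.221). Limma on log2(CPM + 1) called Cd5l lower in CD11b+ (adjusted p = 0.00954), as it did with a pseudocount of 0.1 (adjusted p = 0.0317). Over all alternatives the adjusted p ran from 0.00954 to 0.366, with DESeq2 at 0.111. The highest CD11b+ library, replicate 4, weighed on this value, and without it the log2 fold change was -3.82.

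MSR1 is the class A macrophage scavenger receptor. Msr1 had 1.15, 2.63, 0.021 and 1.23 CPM in CD11b+ replicates 1 to 4 and 0.070, 0, 0.492 and 0 CPM in CD11b- replicates 1 to 4. In counts this was 42, 104, 1 and 50 in CD11b+ against 2, 0, 16 and 0 in CD11b-. CD11b+ replicate 3, with 1 count, lay within the CD11b- range, and the difference was not called (log2 3.09, SE 1.88, 95% interval -1.12 to 7.30, edgeR adjusted p = 0.268). Without CD11b- replicate 3, which held 16 of the 18 CD11b- counts, the log2 fold change was 5.68 (edgeR adjusted p = 0.102).

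Stabilin-1 is a scavenger and phosphatidylserine receptor of macrophages and sinusoidal endothelium. Stab1 had 19, 155, 100 and 161 counts in CD11b+ replicates 1 to 4 (0.519, 3.92, 2.09 and 3.96 CPM) and 4, 0, 17 and 16 counts in CD11b- replicates 1 to 4 (0.140, 0, 0.522 and 0.583 CPM). The highest 3 CD11b+ libraries stood above all CD11b- libraries, while CD11b+ replicate 1 lay among them. The log2 fold change was 3.08 (SE 1.43, 95% interval -0.14 to 6.29) and was not called by edgeR (adjusted p = 0.147). DESeq2 called Stab1 higher in CD11b+ (adjusted p = 0.0400), and limma did so at both pseudocounts (adjusted p = 0.0360 and 0.0497), with a range of 0.0360 to 0.298 over all alternatives. In the GENCODE M21 annotation 1.09% of Stab1 exon bases are shared with Nt5dc2, and these libraries do not mark strand.

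MRC1 is the macrophage mannose receptor CD206. Mrc1 had 12.6, 2.35, 14.3 and 14.2 CPM in CD11b+ replicates 1 to 4 and 30.8, 1.62, 25.1 and 11.4 CPM in CD11b- replicates 1 to 4. Replicate 2 was lowest in both populations, with 93 counts in CD11b+ and 57 in CD11b-, where the other libraries held 313 to 877 counts. The ranges overlapped and the difference was not called (log2 -0.64, SE 0.83, 95% interval -2.51 to 1.22, edgeR adjusted p = 0.633). With 1 library left out the log2 fold change ran from -1.01 (without CD11b- replicate 2) to -0.24 (without CD11b- replicate 1).

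AXL and MERTK are the receptor kinases that bind GAS6 on the engulfing cell. Axl was, after Cd36, the member with the most counts in CD11b+, and had counts in every library. It stood at 11.4, 15.6, 13.1 and 26.5 CPM in CD11b+ replicates 1 to 4, against 34.3, 72.6, 13.7 and 17.99 CPM in CD11b- replicates 1 to 4. CD11b- replicates 1 and 2 lay above all CD11b+ libraries and the other two within their range. The log2 fold change of -1.01 (SE 0.53, 95% interval -2.20 to 0.19) was not called by edgeR (adjusted p = 0.200). Without CD11b- replicates 1 and 2 it was 0.094 (edgeR adjusted p = 0.915).

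Mertk spanned 8 to 388 counts in CD11b+ and 1 to 305 counts in CD11b-. Its levels were 3.09, 2.00, 8.09 and 0.197 CPM in CD11b+ replicates 1 to 4 and 0.982, 8.67, 0.031 and 10.96 CPM in CD11b- replicates 1 to 4. CD11b- replicate 3 with 1 count had an exact 95% Poisson interval of 0.000778 to 0.171 CPM, and CD11b- replicate 4 with 301 counts one of 9.76 to 12.3 CPM. The spread between replicates of 1 population was therefore far larger than counting error. Such intervals and the limits from a count of 0 reflect counting alone, since no molecular identifiers were used. The populations overlapped throughout (log2 -0.55, SE 1.43, 95% interval -3.76 to 2.65, edgeR adjusted p = 0.826).

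Gas6, the bridging ligand, had 0, 120, 23 and 40 counts in CD11b+ replicates 1 to 4 and 201, 225, 0 and 0 counts in CD11b- replicates 1 to 4. In CD11b- this was 7.05 and 6.399 CPM in replicates 1 and 2, and in replicates 3 and 4 a count of 0 allows up to 0.0922 and 0.109 CPM (3 counts of the library). CD11b+ libraries reached 3.04 CPM. The difference between populations was not called (log2 -1.49, SE 2.09, 95% interval -6.18 to 3.21, edgeR adjusted p = 0.663). With 1 library left out the log2 fold change ran from -2.71 (without CD11b+ replicate 2) to -0.86 (without CD11b- replicate 1).

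Timd4, which encodes the phosphatidylserine receptor TIM-4 of resident macrophages, had 47, 251, 150 and 0 counts in CD11b+ replicates 1 to 4 and 61, 248, 0 and 15 counts in CD11b- replicates 1 to 4. Its levels were 1.28, 6.35, 3.13 and 0 CPM in CD11b+ and 2.14, 7.05, 0 and 0.546 CPM in CD11b-. Replicate 2 was highest in both populations, and 1 library of each was at 0. The log2 fold change was 0.22 (SE 1.81, 95% interval -3.83 to 4.28, edgeR adjusted p = 0.949), an interval that holds large differences in both directions.

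Vsig4, the complement receptor CRIg of tissue macrophages, was found in 1 library of each population, with 12 counts (0.304 CPM) in CD11b+ replicate 2 and 46 counts (1.41 CPM) in CD11b- replicate 3. The other 6 libraries had no count, which allows up to 0.0626 to 0.109 CPM. It was left out of the test across genes, and with 1 library of each population above 0 no test of it was informative.

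**Figure D3:**
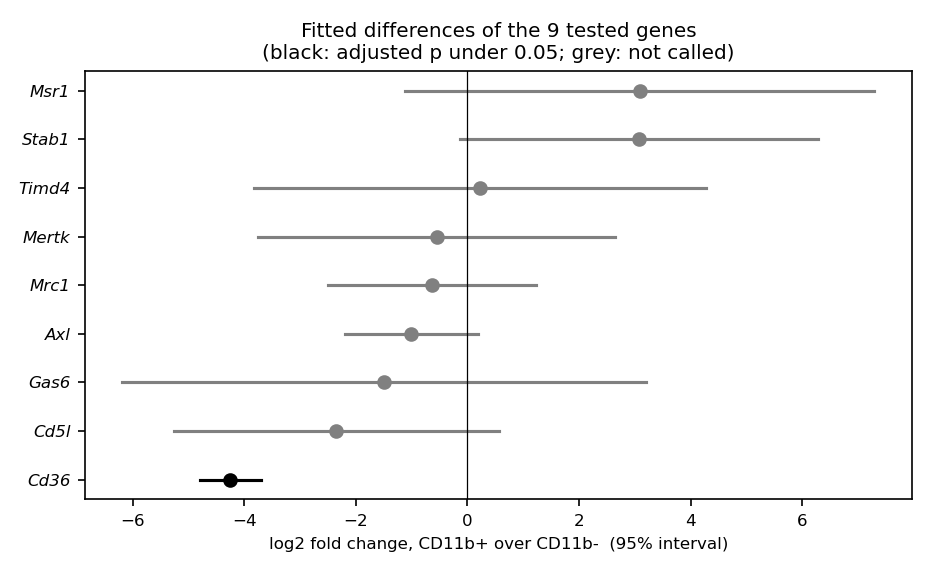
Log2 fold change, CD11b+ over CD11b-, of the 9 tested genes (points) with 95% intervals (lines) from edgeR, black where the adjusted p was under 0.05. Only the interval of Cd36, from -4.80 to -3.71, stands clear of 0, and those of Gas6, Timd4 and Msr1 are the widest.

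The members were ordered by level per length, as CPM per kilobase of annotated exons (GENCODE M21). In CD11b+ Cd36 led at 10.99 ± 3.35 CPM per kilobase, followed by Axl at 3.31 ± 1.34 and Cd5l at 1.82 ± 2.48 (SD, n = 4). In CD11b- the order was Cd36 at 214 ± 33.5, Cd5l at 9.38 ± 2.11 and Axl at 6.88 ± 5.33 CPM per kilobase. Stab1, Msr1 and Vsig4 were the lowest 3 in both, all at or under 0.255 CPM per kilobase. Apart from Cd36 above its next gene, every pair of neighbours in either order overlapped over the 4 libraries. Cd36 made up 44.6% to 52.1% of the summed CPM of the 10 genes in CD11b+ and 85.0% to 93.6% in CD11b-. The other 9 genes together came to 30.1 to 58.0 CPM in CD11b+ and 61.4 to 111 CPM in CD11b-.

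Whether these macrophage transcripts rose and fell together was described from deviations of log2(CPM + 1) from the mean of the library's own population. No library carried high values throughout. In CD11b+, replicate 2 was highest for Gas6, Timd4, Vsig4 and Msr1, replicate 4 for Axl, Cd5l, Stab1 and Cd36, and replicate 3 for Mertk and Mrc1. In CD11b-, replicate 1 was highest for Gas6 and Mrc1, replicate 2 for Axl and Timd4, replicate 3 for Cd5l, Vsig4 and Msr1, and replicate 4 for Mertk, Stab1 and Cd36. CD11b- replicate 2 had both the highest Axl and the lowest Mrc1 of that population. Of the 36 pairs among the 9 tested members, 16 (44.4%) varied in the same direction (Pearson r above 0 over the 8 deviations), against 50.8% of all pairs of tested genes. The 25 tested resident macrophage markers had the same direction in 174 of 300 pairs (58.0%), and members with markers in 122 of 225 pairs (54.2%). These shares are descriptions with no test, since 4 libraries of a population are too few for a correlation within it.

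**Figure D4:**
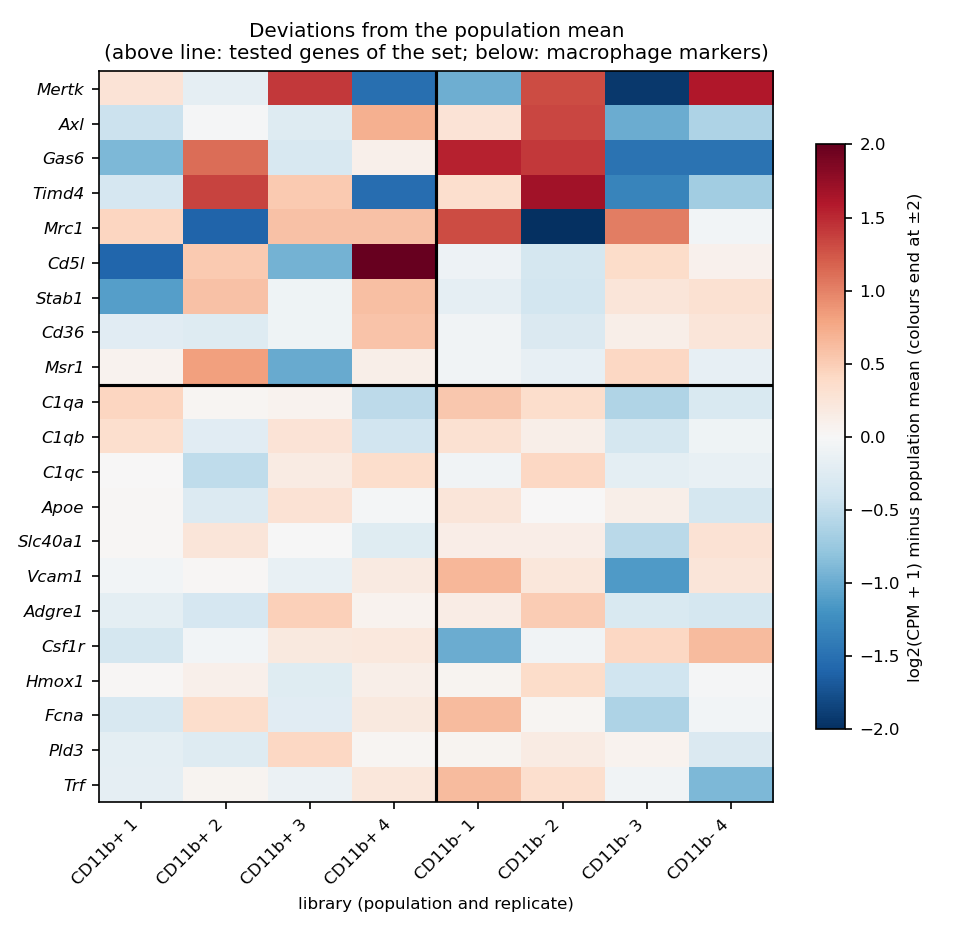
Deviation of log2(CPM + 1) from the mean of each library's own population (colour, ending at ±2) for the 9 tested genes of the set above the horizontal line and 12 resident macrophage markers below it, with CD11b+ libraries on the left and CD11b- libraries on the right. No column has a single colour above the line, and the deepest colours lie above the line, in Mertk, Gas6, Timd4, Mrc1 and Cd5l. The 12 are a part of the 25 tested markers, so depth of colour does not compare the set with the whole list. Marco, on that list, ranged from 0 to 19.6 CPM over CD11b- libraries.

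Axl, Gas6 and, in part, Timd4 did share a pattern within CD11b-. Gas6 was found only in CD11b- replicates 1 and 2, and the same pair had the higher Axl and Timd4 values. The resident macrophage sum stood at 3086, 2794, 2339 and 2064 CPM in CD11b- replicates 1 to 4, and the neutrophil sum at 6910, 4552, 2324 and 662 CPM in the same libraries. The eosinophil sum (490, 342, 76.6 and 83.2 CPM) and the endothelial sum (143, 134, 57.5 and 82.9 CPM) were also higher in replicates 1 and 2 than in replicates 3 and 4. So were the T and NK lymphocyte sum (530, 443, 336 and 369 CPM) and the megakaryocyte and platelet sum (149, 131, 129 and 103 CPM). Nkg7 and Lck weighed most on the T and NK sum, averaging 170 and 157 CPM over CD11b- libraries. Nkg7 was called higher in CD11b+ (mean 1204 CPM), while 4 others of that list were called lower. The erythroid, monocyte and dendritic cell sums were lower in replicates 1 and 2. The part of RNA from any of these cells in the Axl, Gas6 and Timd4 values was not tested. Apoe and Trf, the most abundant of the resident macrophage list, weighed most on its sum. In CD11b- replicates 1 to 4 Trf stood at 800, 648, 488 and 274 CPM, and Apoe at 864, 731, 792 and 571 CPM. Some markers of the list ran the other way. Csf1r rose from 16.025 CPM in CD11b- replicate 1 to 51.634 CPM in replicate 4, and Cd209f from 6.803 to 29.786 CPM. In CD11b+ the macrophage sum was narrower, at 2357, 2320, 2622 and 2501 CPM, and the neutrophil sum lay between 132462 and 154095 CPM.

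The genes most like the mean of the members, by Pearson r with the mean deviation of the 9 tested members over the 8 libraries, were searched among 9257 tested genes of at least 5 CPM. The highest were Cyp20a1 (r = 0.980), Specc1l (0.972), Mrps5 (0.968), A430046D13Rik (0.964), Uhrf1bp1l (0.957), Vps9d1 (0.941), Vps39 (0.937) and Rrp1b (0.932). None of these 8 is on the resident macrophage list. Across the 9257 genes r had a median of 0.0759 and ran from -0.605 at the 5th to 0.697 at the 95th percentile, and a search over this many genes with 8 libraries yields high values by itself. Of the 19 resident macrophage markers among them, 13 had an r above 0 and 6 below 0, from 0.892 for Hpgd (rank 36) to -0.556 for Nr1h3 (rank 8636). The mean did not stand for every member. Against the mean of the other members, r was 0.603 for Axl, 0.575 for Gas6, 0.223 for Stab1, 0.108 for Timd4 and 0.022 for Cd5l. It was -0.153 for Cd36, -0.181 for Msr1, -0.408 for Mertk and -0.740 for Mrc1.

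Of 25 tested resident macrophage markers outside the set, 4 were called higher in CD11b+, 4 lower and 17 not called, with a median log2 fold change of -0.62. The 32% called and the even split lay close to those of all tested genes (29.7% called, 14.6% higher and 15.0% lower). Higher in CD11b+ were Adgre1, the F4/80 gene (91.1 ± 23.7 against 22.9 ± 6.99 CPM, SD, n = 4 each), Vcam1 (393 ± 37.9 against 107 ± 46.2 CPM), Csf1r (85.2 ± 15.1 against 35.8 ± 15.6 CPM) and the iron exporter gene Slc40a1 (384 ± 51.9 against 248 ± 56.7 CPM). Adgre1 and Vcam1 encode surface proteins that both sorts required. Lower in CD11b+ were the ficolin Fcna (log2 -1.69, SE 0.28), the phospholipase family member Pld3 (log2 -1.27, SE 0.19), the heme oxygenase Hmox1 (log2 -1.13, SE 0.20) and the complement gene C1qc (log2 -0.80, SE 0.22), with edgeR adjusted p of 0.0012, 0.000624, 0.00168 and 0.0226 in that order. The C1qc call was lost without CD11b+ replicate 1 or 2 or CD11b- replicate 2 (edgeR adjusted p from 0.0552 to 0.0665) and without CD11b- replicates 1 and 2 (0.126). Calls of Csf1r (without CD11b+ replicate 3 or 4 or CD11b- replicate 2) and Slc40a1 (without CD11b+ replicate 2) were lost as well, at edgeR adjusted p from 0.0516 to 0.0529, and that of Slc40a1 without CD11b- replicates 1 and 2 (0.0583). The 3 complement genes C1qa, C1qb and C1qc, whose products assemble into 1 protein that binds dying cells, stood at 15.1 ± 4.17, 77.1 ± 19.1 and 54.3 ± 12.99 CPM in the CD11b+ sort, against 26.6 ± 9.80, 102 ± 19.5 and 97.1 ± 20.7 CPM in the CD11b- sort. Their 3 pairs all varied in the same direction within populations, with 2 of 3 after TMM scaling. The most abundant of the list were not called, with Apoe at 707 ± 115 CPM in the CD11b+ sort and 740 ± 125 CPM in the CD11b- sort, and Trf (transferrin) at 349 ± 44.2 CPM in the CD11b+ sort and 553 ± 225 CPM in the CD11b- sort. Trf was called lower without CD11b- replicate 4 (edgeR adjusted p = 0.00622).

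Of 13 tested genes for other phosphatidylserine receptors and bridging proteins, 4 were called higher in CD11b+, none lower (edgeR, adjusted p under 0.05) and 9 were not called. The share called, 30.8%, lay close to the 29.7% among all tested genes. The list had a median log2 fold change of 1.05, against -0.01 over all tested genes. Limma on log2(CPM + 1) called 7, all higher. Cd300lf and Cd300lb, a pair of CD300 family receptors of myeloid cells, stood at 100 ± 8.34 and 112 ± 62.7 CPM in the CD11b+ sort, against 7.42 ± 8.03 and 1.76 ± 2.06 CPM in the CD11b- sort (log2 3.73 and 6.01, edgeR adjusted p = 0.0032 and 0.00731). Without CD11b- replicate 3 the Cd300lf value was 4.93 and without CD11b- replicates 1 and 2 it was 3.02, and without CD11b- replicate 1 the Cd300lb value was 6.70. Anxa5, which binds and masks phosphatidylserine, stood at 303 ± 28.5 CPM in the CD11b+ sort, against 92.9 ± 7.45 CPM in the CD11b- sort (log2 1.74, SE 0.13). Calr, an exposed signal for uptake, was at 132 ± 30.9 CPM in the CD11b+ sort, against 80.1 ± 25.3 CPM in the CD11b- sort (edgeR adjusted p = 0.0403), a call lost in 6 of the 8 cases of a library left out (up to 0.111) and with library totals only (0.0687). The lists used here were written with earlier results of these data known.

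Engulfment machinery moved both ways. Of 24 tested genes 10 were called higher, 2 lower and 12 not called (50% called, beside 29.7% of all tested genes, of which 14.6% were higher and 15.0% lower), with a median log2 fold change of 0.12. Rac2, a small GTPase of blood cells, stood at 1717 ± 253 CPM in the CD11b+ sort, against 511 ± 106 CPM in the CD11b- sort (log2 1.79, SE 0.18). Elmo1 and Dock1, partners that activate Rac, stood at 288 ± 50.3 and 47.2 ± 23.9 CPM in the CD11b+ sort, against 69.8 ± 20.7 and 6.51 ± 7.78 CPM in the CD11b- sort (log2 2.09 and 2.94, edgeR adjusted p = 9.94e-05 and 0.0312). The Dock1 value was 4.10 without CD11b- replicate 1 and 5.51 without CD11b- replicates 1 and 2, and its call was lost without CD11b+ replicate 1 or 2 or CD11b- replicate 2 or 3 (edgeR adjusted p from 0.0537 to 0.0836). Slc7a11, a cystine transporter, had 4.76 ± 2.27 CPM in the CD11b+ sort, against 0.0653 ± 0.0075 CPM in the CD11b- sort (log2 6.16, edgeR adjusted p = 0.00129), where each library held 2 counts. Lower in CD11b+ were Ucp2, a mitochondrial carrier (92.2 ± 7.64 against 726 ± 293 CPM, log2 -2.94), and Dnase2a, the lysosomal nuclease that degrades engulfed DNA (5.81 ± 3.61 against 20.5 ± 6.46 CPM, log2 -1.80, edgeR adjusted p = 0.0265). The Dnase2a call was lost in 5 of the 8 cases of a library left out (edgeR adjusted p up to 0.0755).

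**Figure D5:**
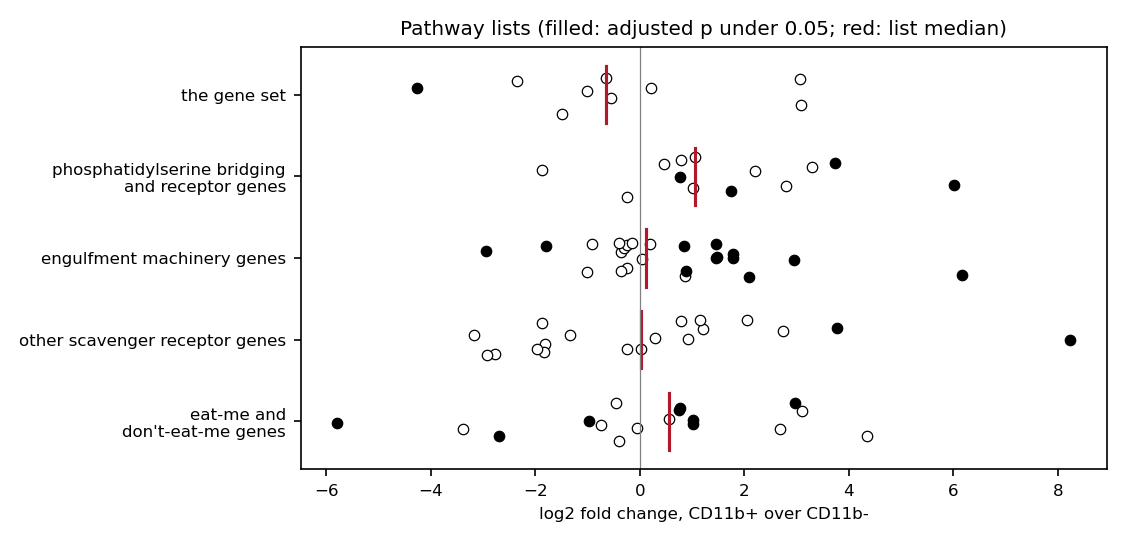
Log2 fold change, CD11b+ over CD11b-, of each tested gene (points, filled where the edgeR adjusted p was under 0.05) in the set and in 4 lists of related genes, with the list median in red. Cd36 is the only filled point of the set, and among the other scavenger receptor genes only Olr1 and Ly75 are filled.

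Among other scavenger receptor genes few were called. Of 19 tested, 2 were higher in CD11b+, none was lower (edgeR, adjusted p under 0.05) and 17 were not called, beside 29.7% called among all genes, with a median log2 fold change of 0.02. DESeq2 called 4 of this list and limma 6 and 5 at pseudocounts of 1 and 0.1, in each case with 2 of them lower, and edgeR without CD11b- replicates 1 and 2 called 4, with 1 lower. Olr1, the oxidised LDL receptor LOX-1, had 7517 counts over the CD11b+ libraries and 18 over the CD11b- libraries. The CPM-scaled ratio was 313 (exact 95% counting interval 198 to 529). That interval reflects counting alone and leaves out the spread between libraries, so it understates the uncertainty of the ratio. With that spread, edgeR gave a log2 fold change of 8.24 (SE 1.23, adjusted p = 0.000678). Of the 18 CD11b- counts, 17 were in CD11b- replicate 3. Without that library the CPM-scaled ratio rested on 1 count, at 4158 (746 to 164253 by counting alone). Ly75, the endocytic receptor DEC-205, stood at 126 ± 44.7 CPM in the CD11b+ sort, against 9.62 ± 6.84 CPM in the CD11b- sort (log2 3.77, edgeR adjusted p = 0.000744). Scarb1, a class B receptor related to CD36, stood at 126 ± 16.5 CPM in the CD11b+ sort, against 128 ± 14.6 CPM in the CD11b- sort (log2 0.02, 95% interval -0.36 to 0.39), an interval that does not reach the size of the Cd36 difference. The macrophage sialomucin Cd68 was at 67.9 ± 15.04 CPM in the CD11b+ sort, against 82.3 ± 35.9 CPM in the CD11b- sort (edgeR adjusted p = 0.657). Colec12, another class A type receptor, had no count in any library.

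Signals that invite or block uptake also moved both ways. Of 17 tested genes 5 were called higher, 3 lower and 9 not called (47.1% called, beside 29.7% of all tested genes), with a median log2 fold change of 0.56. Cd47 and Cd24a, which block uptake of the cells that carry them, stood at 1016 ± 153 and 95.01 ± 16.1 CPM in the CD11b+ sort, against 2046 ± 258 and 627 ± 91.1 CPM in the CD11b- sort (log2 -0.97 and -2.68, edgeR adjusted p = 0.00181 and 5.63e-06). Sirpa, the CD47 receptor of phagocytes, stood at 331 ± 89.7 CPM in the CD11b+ sort, against 43.0 ± 18.3 CPM in the CD11b- sort (log2 2.98, SE 0.41). Tmem30a, a subunit of phospholipid flippases, was higher in CD11b+ (log2 1.02, SE 0.15), and so was Ano6, a phospholipid scramblase (log2 1.01, SE 0.28, edgeR adjusted p = 0.0215), whose call was lost in 4 of the 8 cases of a library left out (up to 0.0598) and without CD11b- replicates 1 and 2 (0.119). Sphk1, which makes the attractant sphingosine 1-phosphate, was at 1.74 ± 2.13 CPM in the CD11b+ sort, against 96.3 ± 31.8 CPM in the CD11b- sort (log2 -5.79, edgeR adjusted p = 0.0112), or -6.78 without CD11b+ replicate 4. Calr is on this list too.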

How the data were processed

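SmartSeq2 libraries were made from sorted bone marrow cells, per the labels' protocols. The submitters' processing notes list TopHat2, HTSeq 0.10.0, DESeq2 and mm9 without roles. No source used here names the annotation, the strand option or how multi-mapped reads were handled. The authors deposited whole-number counts per gene symbol for each library, in files whose names say FPKM, and a CPM table, which the counts gave back within 0.0005 CPM. Of 18817 rows, 27 carried numbers in place of symbols (0.205% to 0.514% of counts) and were left out.

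Populations were compared with edgeR 4.0.16 under R 4.3.3, using TMM scaling, filterByExpr (minimum count 10, minimum total 15) and a prior count of 0.125, without covariates, checked on simulated data. Standard errors are the size of the log2 fold change divided by the square root of F. P-values set the difference between populations against the spread between libraries. Alternatives were DESeq2 1.42.0, limma 3.58.1 on log2(CPM + 1) and log2(CPM + 0.1), other scalings and filters, the replicate block and leaving out each library. CD11b- replicates 1 and 2, highest in the neutrophil gene Mpo, were left out together as an alternative chosen after seeing the data. The members and lists were chosen with earlier results of these data known. Named genes were the members, the 2 most abundant of each list, up to 4 called genes in each direction and the 8 most like genes. Siglec1, Hpgd, Nr1h3, Vwf, Itgb3, Pf4, Egfl7 and Stab2 were added after their values were seen. For other marker lists mostly sums and counts are given. Every pair of replicates differed beyond counting noise (chi-square over degrees of freedom 125 to 217).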

Additional observations from a re-analysis of the deposited data

Results flagged for a closer look

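Among 20 groups of 4 libraries (10 genes in 2 populations), 5 had 1 library flagged by Dixon's test at its 95% critical value. A flag means that the gap to the nearest neighbour took up more of the group's range than that value. Chance flags about 1 in 20 groups of normally distributed values. The 5 flags cannot be set against that rate, since a group with only 1 library above 0, as in Vsig4, is always flagged. Mrc1 was set apart in CD11b+ by the low value of replicate 2 (2.35 CPM). Cd36 was set apart in CD11b+ by the high value of replicate 4 (57.3 CPM). Vsig4 was set apart in CD11b+ by replicate 2 (0.304 CPM) and in CD11b- by replicate 3 (1.41 CPM), each the only library of its population with a count. Msr1 was set apart in CD11b- by replicate 3 (0.492 CPM, 16 counts).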

How the results depend on the processing

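The call of Cd36 and its direction held in edgeR, DESeq2 and limma, with every library left out in turn, with the replicate block (log2 fold change -4.28, adjusted p = 0.000121) and without the CD11b- pair highest in Mpo (-4.44). The number of members called was 1, and 1 with each library left out, but 2 with DESeq2 (Stab1 added) and 3 with limma at both pseudocounts (Stab1 and Cd5l added). The 3549 calls among all genes became 3035 to 3418 with a library left out, 4745 with DESeq2 and 3195 with the replicate block, under which 1 member was called, Msr1 had a log2 fold change of 4.99 and Calr and C1qc lost their calls (adjusted p = 0.0696 and 0.0745). Of 36 pairs of members 16 varied together, and 16 or 17 with a pseudocount of 0.1 or TMM scaling. Same-numbered libraries of the populations had correlated deviations of 0.0198 to 0.0643 over genes, against -0.0537 to 0.0285 for libraries of different numbers. The same-numbered values were under the 0.1 needed to call them paired, and not every library correlated best with its own number. The main test did not pair the libraries. All same-numbered values were above 0, and whether such libraries shared mice or a sort day was not tested.

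Uncalled members and other uncalled genes changed direction in places, and the cause was not tested. Mertk had a log2 fold change of 0.061 with limma on log2(CPM + 0.1) and -1.46 to 0.11 with a library left out. Axl had 0.094 without the CD11b- pair. Gas6 had 1.52 with the replicate block and 8.41 without the CD11b- pair, where both libraries left were at 0, so that the value depends on the prior count. Timd4 had -0.25 with the replicate block and -0.66 to 1.70 with a library left out. Scarb1 had -0.022 with library totals only, -0.019 with limma at either pseudocount, -0.0082 without the CD11b- pair and -0.049 to 0.14 with a library left out. Apoe had 0.058 without the CD11b- pair and -0.13 to 0.060 with a library left out. The other 5 tested members kept their direction under every alternative that tested them. Of the 35 other genes followed, 7 lost their call under some alternative. Vsig4, Msr1 and Stab1 had the fewest counts of the members, with 58, 215 and 472 over the 8 libraries.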
